A study of Homo sapiens with 42 samples.

Results

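H1975 osimertinib drug tolerant persister (DTP) cells were compared with vehicle-treated H1975 cells by ATAC-seq, a method that tags DNA with a transposase wherever chromatin is open. H1975 is a human lung adenocarcinoma cell line whose EGFR gene carries an activating mutation. Of the 42 libraries of the series, the 6 libraries labelled H1975 DTP and H1975 DMSO were used, 3 in each group. Osimertinib, a kinase inhibitor of mutant EGFR, was given to DTP cells at 500 nM for 24 days. DMSO cells, the parental line, had grown for 21 days without drug and had then received the vehicle DMSO for 3 days. Another group of 3 libraries, named combo, came from cells with 21 days of 500 nM osimertinib followed by 3 days of 150 nM AZD5153, a BET inhibitor, and its values are given only side by side. All groups come from the 1 line H1975 and carry its EGFR mutation, and the DMSO cells had never met osimertinib.

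EGFR passes growth signals through RAS and the kinases RAF, MEK and ERK, and ERK activity raises its own brakes, among them the DUSP phosphatases and the Sprouty and SPRED proteins. Persisters are cells that outlive a kinase inhibitor without a new resistance mutation and divide slowly or not at all. Open chromatin away from gene starts marks enhancers, where factors such as AP-1, which ERK activates, and the TEAD proteins, which carry the Hippo pathway coactivators YAP1 and WWTR1 (TAZ), bind DNA. A change in accessibility in a bulk sample can come from fewer cells with an open site or from a less open site in each cell, and these cannot be told apart.

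The count table held 496892 regions of equal width on build hg38. Of these, 76952 carried the authors' annotation with a nearest gene (SYMBOL), a class and a distance to the nearest transcription start, all within 100 kb. The nearest gene is a name for a region and is not shown to be the gene it acts on. Total counts were 7853163 to 9043320 in DMSO and 8321788 to 9547244 in DTP libraries. Levels are given as CPM, counts scaled to the total of the library and corrected by a TMM factor. A region was called where edgeR's quasi-likelihood test gave a Benjamini-Hochberg adjusted p under 0.05, and called at 2-fold where the log2 change was also at least 1 in size. The labels give biological triplicates. Within the groups, 5 of 6 pairs of libraries varied by more than counting noise, at 1.06 to 1.22 times its variance. DMSO libraries 1 and 2 differed by no more than counting noise (ratio 0.973), so counts are also given with both counted as 1 sample. The p-values thus measure a spread near that of repeated counting, with a biological coefficient of variation of 3.20%.

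Epithelial marker starts were open in both groups, at a lower summed level in DTP. All 6 epithelial markers had an open start region. Their summed level was 182 to 190 CPM in DMSO and 156 to 170 CPM in DTP libraries, which did not overlap. The largest change among them was at 1 KRT8 start region, from 61.9, 62.0 and 60.5 to 28.8, 37.9 and 32.5 CPM (log2 change -0.89). CDH1 fell slightly (-0.19), KRT7 (0.32) and KRT18 (0.64) rose, and EPCAM and KRT19 did not pass the test. The groups did not overlap at 65.4% of the annotated regions. The lung adenocarcinoma markers NKX2-1, NAPSA, SFTPB and MUC1 summed to 57.8 to 67.3 and 64.0 to 65.9 CPM, with overlap. Of 5 immune markers only CD79A and CD68 had a start region, with a summed level of 65.3 to 77.8 CPM in DMSO and 36.5 to 40.0 CPM in DTP libraries, and no annotated region was tested for PTPRC or LYZ. Endothelial markers summed to 22.5 to 28.1 and 17.2 to 19.6 CPM (2 of 3 with a start region), and fibroblast markers to 29.1 to 36.3 and 31.2 to 33.1 CPM (3 of 5). The part of these markers in the results was not tested.

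Promoter sequences show what the starts that opened and closed held. RefSeq windows of GRCh38.p14, from 250 bases before to 50 bases after a gene's start, were joined to regions that covered at least 150 of the 300 bases, which gave 9358 windows, with a window for 8264 of 9588 genes (86.2%). On both strands they were searched for the letters of AP-1 (TGACTCA), TEAD (GGAATG), ETS (CCGGAAG), E-box (CACGTG), CRE (TGACGTCA), SP/KLF (GGGCGG) and the CCAAT box (GATTGG). Among all 35116 RefSeq windows, AP-1 was present in 4.95%, TEAD in 14.0%, ETS in 10.3%, E-box in 7.26%, CRE in 1.85%, SP/KLF in 45.0% and CCAAT in 15.1%. None of these motifs contains another. Matches below stand in capitals, and a match is a description of letters and not a binding site.

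AP-1 letters were frequent at the starts that closed. Of 183 windows whose region was lower in DTP at 2-fold, 59 held an AP-1 match (32.2%), against 13 of 289 windows higher at 2-fold (4.50%) and 3.98% of 8886 others. TEAD letters were present in 57 of the 289 higher windows (19.7%), in 14.8% of the lower and in 10.4% of the others. The changed windows were poorer in CpG, with a median of 5 CpG in the lower, 16 in the higher and 27 in the other windows, and SP/KLF letters were in 32.2%, 50.2% and 74.2%. Among windows with at most 10 CpG, AP-1 was in 44.0% of 125 lower, 10.2% of 118 higher and 18.8% of 767 other windows, and TEAD in 16.8%, 31.4% and 20.3%. Conversely, of 426 windows with AP-1, 13.8% were lower and 3.05% higher at 2-fold, with a median log2 change of -0.17, while of 8932 without it 1.39% were lower and 3.09% higher.

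Windows with AP-1 letters and steep falls are shown first, to let the matched letters be read in place. They were chosen by size of fall among windows with a mean level above the median, with chromosomes 8 and Y left out. ADGRF4, an adhesion G protein-coupled receptor gene, has its window at chr6:47698330-47698629 on the plus strand. MXD3, a partner of MAX, is at chr5:177312703-177313002 on the minus strand, and FPR1, the formyl peptide receptor, at chr19:51751829-51752128 on the minus strand. The CPA4 window, of a carboxypeptidase gene, is at chr7:130292911-130293210 on the plus strand.
ADGRF4: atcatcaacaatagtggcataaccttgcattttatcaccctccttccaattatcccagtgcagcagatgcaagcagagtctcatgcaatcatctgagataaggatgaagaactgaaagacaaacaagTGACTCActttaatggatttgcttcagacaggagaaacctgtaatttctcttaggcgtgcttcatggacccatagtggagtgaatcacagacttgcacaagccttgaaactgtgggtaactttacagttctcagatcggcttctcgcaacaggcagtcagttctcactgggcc
MXD3: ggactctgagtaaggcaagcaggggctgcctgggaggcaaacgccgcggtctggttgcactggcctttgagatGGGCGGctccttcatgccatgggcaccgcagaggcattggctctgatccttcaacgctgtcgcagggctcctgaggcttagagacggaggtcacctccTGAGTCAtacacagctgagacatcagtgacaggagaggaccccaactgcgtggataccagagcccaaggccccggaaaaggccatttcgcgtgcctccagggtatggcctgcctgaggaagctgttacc
FPR1: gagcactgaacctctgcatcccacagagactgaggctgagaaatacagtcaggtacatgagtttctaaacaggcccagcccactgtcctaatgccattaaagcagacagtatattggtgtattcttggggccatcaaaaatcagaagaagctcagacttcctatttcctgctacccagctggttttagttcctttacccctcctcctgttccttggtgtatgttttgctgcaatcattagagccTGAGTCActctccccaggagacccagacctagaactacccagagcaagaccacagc
CPA4: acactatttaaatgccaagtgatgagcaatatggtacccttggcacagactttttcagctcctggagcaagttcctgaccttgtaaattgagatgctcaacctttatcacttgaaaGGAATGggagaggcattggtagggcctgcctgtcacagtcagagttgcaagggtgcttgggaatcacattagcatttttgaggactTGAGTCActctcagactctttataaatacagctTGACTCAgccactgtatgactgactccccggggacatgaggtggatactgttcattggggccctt
ADGRF4 measured 31.1, 37.1 and 32.2 CPM in the DMSO and 6.01, 6.01 and 5.04 CPM in the DTP libraries (log2 change -2.56, SE 0.12, edgeR adjusted p 4.3e-56). MXD3 fell from 23, 27.2 and 27.2 to 7.93, 5.78 and 4.70 CPM, and FPR1 from 55.4, 57.4 and 53.7 to 12.7, 19.4 and 15.9 CPM. CPA4, whose window holds 2 AP-1 matches and a TEAD match farther up, fell from 32.3, 30.1 and 29.5 to 9.21, 11.6 and 9.74 CPM. Every DTP library lay below every DMSO library in each of these windows, which their choice by size of fall favours.

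Windows with TEAD letters that rose follow, together with CCN2, a textbook target of YAP1. VEPH1, which encodes a pleckstrin homology domain protein, is at chr3:157499607-157499906, MUC1, a membrane mucin, at chr1:155192860-155193159 and CCN2, a matricellular growth factor, at chr6:131951323-131951622, all on the minus strand.
VEPH1: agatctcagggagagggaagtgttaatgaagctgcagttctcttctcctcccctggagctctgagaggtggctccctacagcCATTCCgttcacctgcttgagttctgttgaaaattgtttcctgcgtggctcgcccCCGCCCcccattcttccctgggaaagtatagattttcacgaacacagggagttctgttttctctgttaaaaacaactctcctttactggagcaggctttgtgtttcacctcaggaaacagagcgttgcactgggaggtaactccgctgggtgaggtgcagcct
MUC1: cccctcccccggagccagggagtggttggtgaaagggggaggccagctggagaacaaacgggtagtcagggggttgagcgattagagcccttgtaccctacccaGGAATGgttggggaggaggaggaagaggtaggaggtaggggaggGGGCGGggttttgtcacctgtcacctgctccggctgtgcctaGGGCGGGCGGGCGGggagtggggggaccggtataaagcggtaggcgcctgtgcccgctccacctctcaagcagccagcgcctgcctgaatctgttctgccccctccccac
CCN2: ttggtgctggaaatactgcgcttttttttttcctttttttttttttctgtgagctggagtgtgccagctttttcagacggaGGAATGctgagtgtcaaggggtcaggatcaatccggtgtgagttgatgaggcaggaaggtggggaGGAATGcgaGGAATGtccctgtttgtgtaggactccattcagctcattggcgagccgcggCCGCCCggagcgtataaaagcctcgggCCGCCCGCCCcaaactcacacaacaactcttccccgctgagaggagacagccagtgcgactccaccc
VEPH1 rose from 7.89, 6.19 and 9.57 to 29.2, 29 and 31.6 CPM (log2 change 1.92), and MUC1 from 8.81, 6.46 and 7.15 to 28.0, 27.1 and 26.5 CPM (1.87). CCN2, with 3 TEAD matches before its start, rose from 4.79, 6.19 and 4.85 to 11.6, 9.98 and 9.52 CPM (log2 change 0.96, edgeR adjusted p 3.4e-08). The same list of letters left the window of DUSP6, an ERK phosphatase, at chr12:89352452-89352751 without a match, although its start closed, and gave PMEPA1, a TGF-beta target, at chr20:57710528-57710827, an ETS and an SP/KLF match. Both lie on the minus strand and are shown because the ERK and TGF-beta results below turn on them.
DUSP6: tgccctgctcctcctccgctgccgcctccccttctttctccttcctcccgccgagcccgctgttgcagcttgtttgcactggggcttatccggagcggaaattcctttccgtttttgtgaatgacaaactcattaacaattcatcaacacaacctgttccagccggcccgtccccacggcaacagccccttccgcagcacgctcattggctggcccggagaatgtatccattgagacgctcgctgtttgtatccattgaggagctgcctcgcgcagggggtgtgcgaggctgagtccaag
PMEPA1: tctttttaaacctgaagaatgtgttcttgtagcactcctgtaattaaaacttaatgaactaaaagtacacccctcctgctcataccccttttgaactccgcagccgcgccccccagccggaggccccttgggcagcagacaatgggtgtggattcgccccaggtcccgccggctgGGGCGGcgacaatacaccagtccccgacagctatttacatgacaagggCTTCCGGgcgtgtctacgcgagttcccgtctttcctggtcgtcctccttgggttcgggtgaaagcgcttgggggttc

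**Figure D1:**
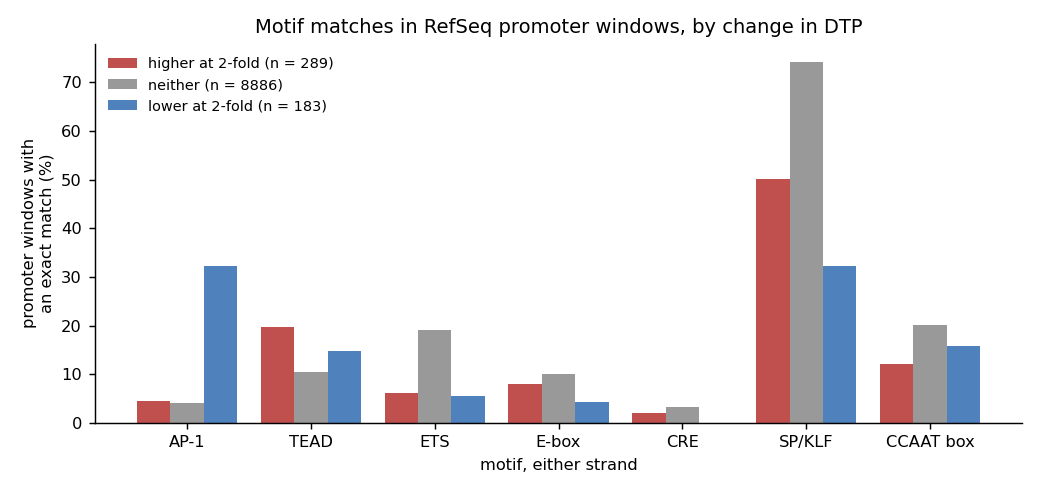
Percentage of RefSeq promoter windows that hold each motif (vertical axis), for 183 windows whose region was lower in DTP at 2-fold, 289 that were higher and 8886 others. The AP-1 bar of the lower windows stands at 32.2%, against 4.50% and 3.98%, and SP/KLF is lower in both changed groups than in the others.

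Accessibility changed at a large share of the tested regions. Of 191202 tested regions 51.9% were called, 24.9% higher and 27% lower in DTP, and 29913 were higher and 32263 lower at 2-fold. With DMSO libraries 1 and 2 counted as 1 sample, 101752 were called. Scaling by library size alone moved the median of all regions up by 0.22 on the log2 scale and the split from 47520 higher and 51631 lower to 64376 and 41472. All DTP libraries lay above or below all DMSO libraries at 56.1% of the tested regions. Regions outside the annotated table leaned to rises (19.5% higher and 16.0% lower at 2-fold of 114250), and annotated ones to falls, with 25.8% called higher and 36.8% lower, and 9.93% higher and 18.1% lower at 2-fold. The rule by which the authors chose the annotated subset was not stated in the labels.

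The balance turned with distance from the gene start. Among regions that contained a start (16713), 4.60% were higher and 3.39% lower at 2-fold. From 1 to 1000 bases away the shares were 10.2% and 8.40%, from 1 to 3 kb 10.4% and 21.9%, and from 30 to 100 kb 13.7% and 28.7%. The median log2 change went from 0.01 at the start and 0.14 just beside it to -0.17, -0.20, -0.22 and -0.25 in the 4 farther bins. By class, promoters within 1 kb gave 6.89% higher and 5.44% lower at 2-fold, introns 12.9% and 27.9%, distal intergenic regions 11% and 25.8%, exons 9.76% and 21.0%, and UTRs 12.8% and 17.3%. Falls were more frequent upstream of the start than downstream (23.8% and 20.8% at 2-fold), and rises less (10.6% and 12.1%).

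**Figure D2:**
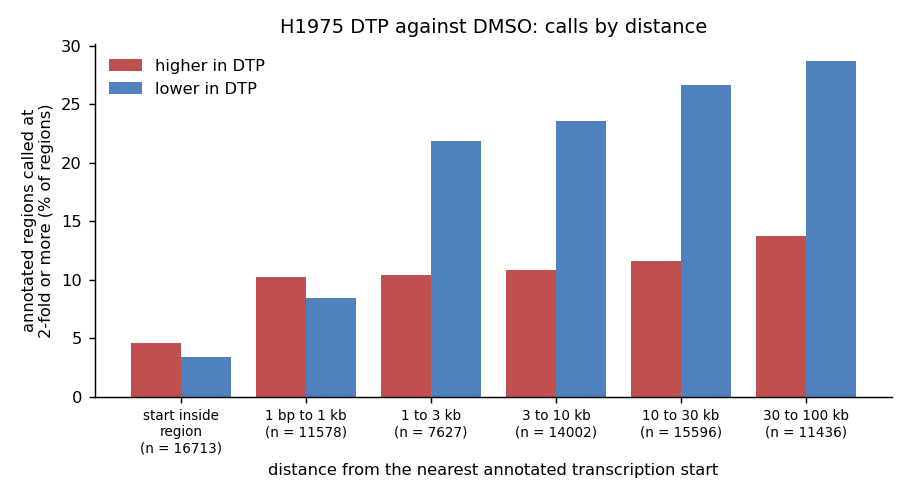
Percentage of annotated regions called at 2-fold (vertical axis) by distance from the nearest transcription start (horizontal axis), with separate bars for regions higher and lower in DTP. Lower regions go from 3.39% at the start to 28.7% at 30 to 100 kb, and higher regions from 4.60% to 13.7%.

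The same turn appeared in each library. Promoter regions within 1 kb took 42.8%, 43.2% and 43.1% of annotated counts in the DMSO and 48.9%, 47.9% and 48.4% in the DTP libraries. Intron regions took 24.2%, 24.0% and 24.0% against 20.9%, 21.5% and 21.2%, and distal intergenic regions 18.7%, 18.6% and 18.6% against 16.5%, 16.9% and 16.7%. The differences were 5.40, -2.88 and -1.9 percentage points, and in none of these classes did the groups overlap. An exact two-sided permutation test gave p 0.1 for each (Benjamini-Hochberg adjusted p 0.1 over 7 classes), the smallest that 3 libraries against 3 allow. Annotated regions as a whole took 74.5%, 74.5% and 73.0% of all counts in DMSO and 68.6%, 72.0% and 71.3% in DTP libraries. Chromosome X took 2.2%, 2.2% and 2.17% against 2.10%, 2.21% and 2.19%, with overlap (exact permutation p 0.7).

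Genes were also read as the sum of counts over all annotated regions that carry their symbol. Of 19360 genes tested 13.3% were higher and 13.5% lower by at least 1.5-fold at an edgeR adjusted p under 0.05, and the text calls these gene sums. Of 28291 promoter regions 6.89% rose and 5.44% fell at 2-fold, as above, and 26.8% rose and 23.1% fell without regard to size. Counts of promoters in a list that rose or fell, with no size given, stand beside these last shares. The gene lists below name pathways by their textbook members, and each count stands beside the 9.93% higher and 18.1% lower at 2-fold of all annotated regions and their median log2 change of -0.07. These shares mix the classes, and the lists were not matched to them by class or distance. Away from starts the share lower at 2-fold was 27.9% in introns and 25.8% in distal intergenic regions. Scaling by library size alone shifts all regions upwards, as above. The medians of the EGFR family, gut and liver, CDK inhibitor, BCL2, cytokine, WNT and Notch, and matrix lists were positive under it. Those of the ERK, bypass receptor, epithelial, cell cycle, NRF2 and cholesterol lists stayed below 0. Removal of regional medians turned the Hippo and YAP target medians from just above to just below 0, and the CDK inhibitor median from just below to just above 0.

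The ERK feedback genes lost accessibility. Of the 225 regions nearest 24 of the 26 listed genes, 68 fell (30.2%) and 19 rose (8.44%) at 2-fold, with a median log2 change of -0.35 (-0.16 with scaling by library size alone). Of 23 promoters none rose and 10 fell, 4 of them at 2-fold. DUSP6, the ERK-specific phosphatase, measured 29.5, 34.3 and 27.9 CPM at its start in DMSO and 9.21, 12.6 and 9.74 CPM in DTP libraries. The groups did not overlap (log2 change -1.53, SE 0.11, edgeR adjusted p 2.8e-32), and combo libraries ranged from 5.36 to 8.11 CPM. Gene sums fell for EGR2, an immediate early factor (-1.41, SE 0.05), ETV1, an ETS factor downstream of ERK (-1.09, SE 0.04), SPRED2, an inhibitor of RAF activation (-1.08, SE 0.03), SPRY4 (-0.74, SE 0.09), DUSP5 (-0.66, SE 0.03) and EGR3 (-0.63). SPRED2 differed in strength along its locus. Its most upstream start region measured 21.0, 20.6 and 16.4 CPM in DMSO and 10.4, 15.1 and 16.3 CPM in DTP libraries (log2 change -0.45), its other start regions fell by 1.32 and 1.43 on the log2 scale, and a region at -84100 bases from the start went from 16.7 to 21.9 down to 1.66 to 3.13 CPM (-2.93), and 11 of its 18 regions fell at 2-fold. SPRY2, another Sprouty protein, had a higher gene sum in DTP, with 72.2 to 75 CPM in DMSO and 84.7 to 87.9 CPM in DTP libraries (log2 change 0.23). This change turned to -0.29 once the median change of each 10 Mb bin (regional median) was removed. The region nearest the SPRY2 start fell, from 36.6, 35.1 and 33.2 to 25.2, 23.8 and 23.4 CPM (log2 change -0.53, edgeR adjusted p 9.3e-09).

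EGFR itself differed little at its main start and changed elsewhere. The region of that start, at chr7:55018716-55019217, measured 13.9, 14.9 and 17.1 CPM in DMSO and 15.5, 15.2 and 17 CPM in DTP libraries, with overlap (log2 change 0.05, edgeR adjusted p 0.74). A region at -33091 bases from it fell from 48.7 to 50.7 down to 6.40 to 7.03 CPM (log2 change -2.89, edgeR adjusted p 3.5e-73). An internal start inside the gene, at chr7:55109321-55109822, fell from 19.9, 20.9 and 22 to 10.6, 11.3 and 10.9 CPM (-0.94), and a region 1308 bases downstream of it rose from 0.269 to 0.619 up to 6.69 to 7.28 CPM (4.01). Over its 22 regions 6 fell and 2 rose at 2-fold, and the gene sum fell by 0.37 on the log2 scale.

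Among the ligands of the EGFR family, TGFA, the transforming growth factor alpha that EGFR binds, fell from 26.1, 25.3 and 28.4 to 12.5, 13.0 and 13.8 CPM at 1 of its start regions (log2 change -1.02, edgeR adjusted p 3.7e-18), and its other start region did not pass the test (0.20). Gene sums fell for TGFA (-0.84), amphiregulin AREG (-0.76) and epiregulin EREG (-0.62). At the AREG start the level was slightly higher in DTP, with 7.93, 7.26 and 8.06 CPM against 5.57, 5.78 and 6.07 CPM (log2 change 0.41, edgeR adjusted p 0.026), whereas a region 52846 bases downstream fell from 5.65 to 6.8 down to 0.227 to 0.336 CPM. ERBB2, the preferred partner of the other receptors, had a gene sum of 97 to 104 CPM in DMSO and 99.1 to 102 CPM in DTP libraries (log2 change 0.00, edgeR adjusted p 0.97). ERBB4 and the neuregulin NRG3, at low levels, rose (gene sums 2.35 from 2 regions and 1.44 from 1 region). The 130 regions of the family list, nearest 17 of 18 genes, held 40 falls (30.8%) and 13 rises (10%) at 2-fold, with a median of -0.17 (0.02 with scaling by library size alone).

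**Figure D3:**
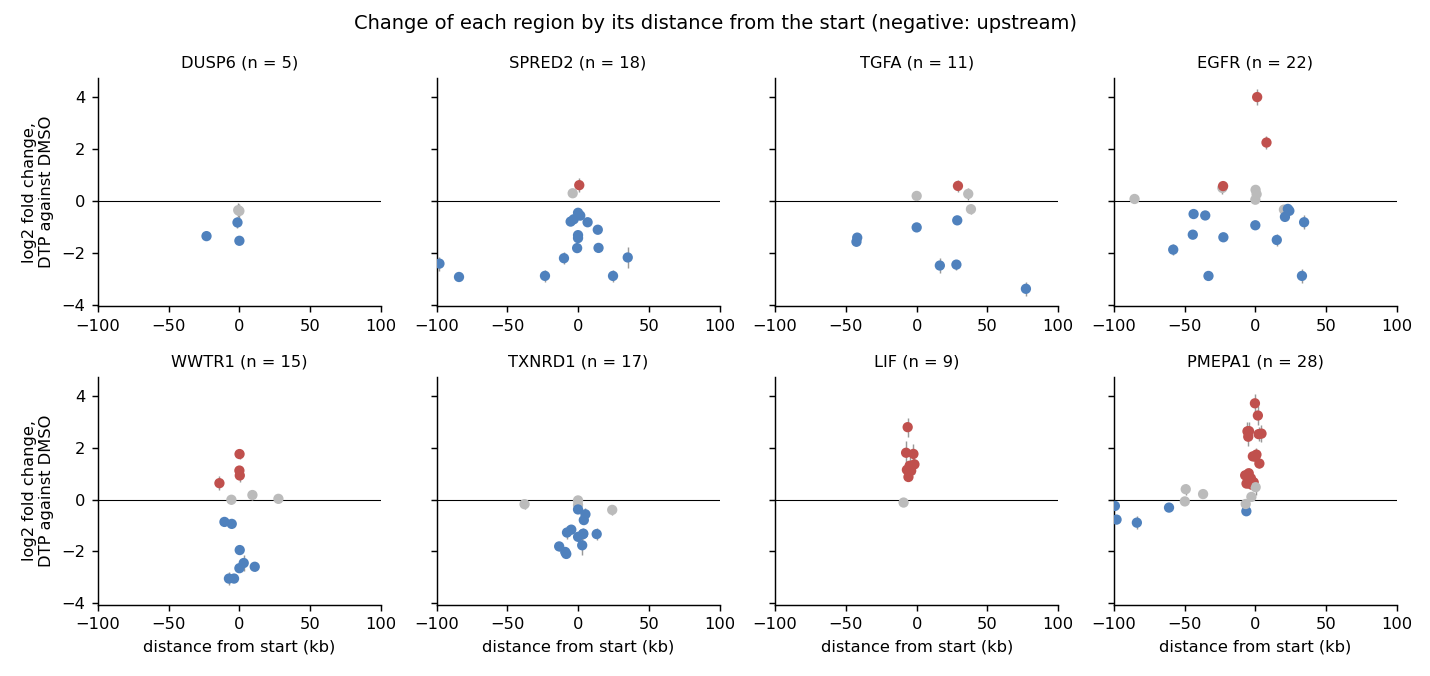
Log2 change between DTP and DMSO (vertical axis, points with SE bars) of every annotated region nearest 8 genes, against its distance from the transcription start in kb. Red points were called higher, blue points lower and grey points not called. DUSP6, SPRED2, TGFA, EGFR, WWTR1 and TXNRD1 show more blue than red points, and most points of LIF and PMEPA1 that were called are red.

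Receptors and ligands that can bypass EGFR held more falls than rises, with a share of falls near that of intron and distal intergenic regions. Of 207 regions nearest 32 of 35 genes, 58 fell (28%) and 19 rose (9.18%) at 2-fold, and 9 gene sums fell against 2 that rose by 1.5-fold. With scaling by library size alone, 82 of these regions were called lower and 63 higher, with a median of -0.02. Of 21 promoters 2 rose at 2-fold, those of the growth factor FGF1 (2.10) and the receptor ALK (1.38), and 1 fell. The gene sums of FGF1 (-0.52) and ALK (-0.75) fell, and the FGF1 promoter region held only 3 to 5 counts in each DMSO library. The falls included the lymphatic growth factor VEGFC (log2 change -1.97), the MET ligand HGF (-1.39, from 1 region), the collagen receptor DDR2 (-1.38), FGFR1 (-1.01) and AXL (-0.79). MET, the receptor whose amplification bypasses EGFR in patients, kept a large open locus of 367 to 373 CPM in DMSO and 299 to 307 CPM in DTP libraries, and 8 of its 18 regions fell at 2-fold. At the region nearest the AXL start the groups overlapped (log2 change -0.55, edgeR adjusted p 0.019), and a region at -753 bases fell from 12.1 to 13.3 down to 3.46 to 5.67 CPM (log2 change -1.47). IGF1R, the insulin-like growth factor receptor, fell from 21.5, 22.6 and 20.6 to 5.63, 7.60 and 6.38 CPM at 1 of its starts (-1.71), while another start rose (0.48, edgeR adjusted p 0.012) and others did not pass the test. NTRK3, the neurotrophin 3 receptor, rose (gene sum 2.10, 3.46 to 6.17 against 18.5 to 22.5 CPM).

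The Hippo pathway changed within itself. WWTR1, the coactivator TAZ, had the steepest promoter fall of its list, with 51.3, 48.7 and 44.4 CPM in DMSO and 6.65, 7.94 and 8.28 CPM in DTP libraries at chr3:149576109-149576610 (log2 change -2.64, edgeR adjusted p 3.2e-68). Other starts of WWTR1 opened in the same cells, one from 3.09 to 3.91 up to 6.24 to 9.18 CPM (1.12) and one from 2.01 to 3.23 up to 7.17 to 9.07 CPM (1.76). The gene sum of WWTR1 fell by 1.05 on the log2 scale. YAP1 fell too (gene sum -0.64), as did the scaffold AMOTL1 (-1.38) and TEAD2 (-1.0, from 1 region). The kinase STK4 (1.40), the scaffold AMOT (1.32) and TEAD3 (0.62) rose. Over the whole list of 197 regions, 28 rose (14.2%) and 33 fell (16.8%) at 2-fold, with a median of 0.03, or 0.22 with scaling by library size alone and -0.06 with regional medians removed.

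YAP and TEAD target genes held more rises than the annotated regions at large. Of 234 regions nearest 24 of 25 genes, 48 rose (20.5%) and 34 fell (14.5%) at 2-fold, and of 24 promoters 9 rose, 4 of them at 2-fold, and 4 fell. ANKRD1, a stress-induced muscle ankyrin repeat protein (gene sum 1.12), and thrombospondin THBS1 (0.69) rose. The 5′-nucleotidase NT5E (-1.10) and the exchange factor DOCK5 (-1.19) fell, so the list did not move one way. Neither CCN1, a close relative of CCN2 (log2 change -0.03 at its start), nor a start region of AMOTL2, with 36.3, 38.7 and 32.6 CPM against 35.2, 41.5 and 44.1 CPM (0.17), passed the test. The gene sum of AMOTL2 was higher (0.36), with 6 of its 16 regions higher and 3 lower at 2-fold, and another of its start regions rose (0.62).

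AP-1 genes themselves moved little. Of 111 regions nearest all 16 genes, 14 rose (12.6%) and 9 fell (8.11%) at 2-fold, no gene sum passed 1.5-fold, and 3 promoters rose and 5 fell without regard to size. TGF-beta and BMP genes leaned upwards. Of 258 regions nearest 31 of 32 genes, 44 rose (17.1%) and 32 fell (12.4%) at 2-fold, with a median of 0.17, and 7 gene sums rose by 1.5-fold while none fell. The ligands BMP6 (gene sum 2.09) and BMP4 (1.11) and the inhibitor of differentiation ID2 (0.94) rose. PMEPA1, a TGF-beta induced brake on SMAD signalling, rose at its start from 5.88, 4.17 and 4.04 to 15.6, 14.3 and 14.2 CPM (log2 change 1.66, edgeR adjusted p 2.4e-21), with 12 of 28 regions higher and none lower at 2-fold. The receptor TGFBR2 fell at its start from 54.4, 58.0 and 51.8 to 31.0, 36.2 and 32.8 CPM (-0.71).

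**Figure D4:**
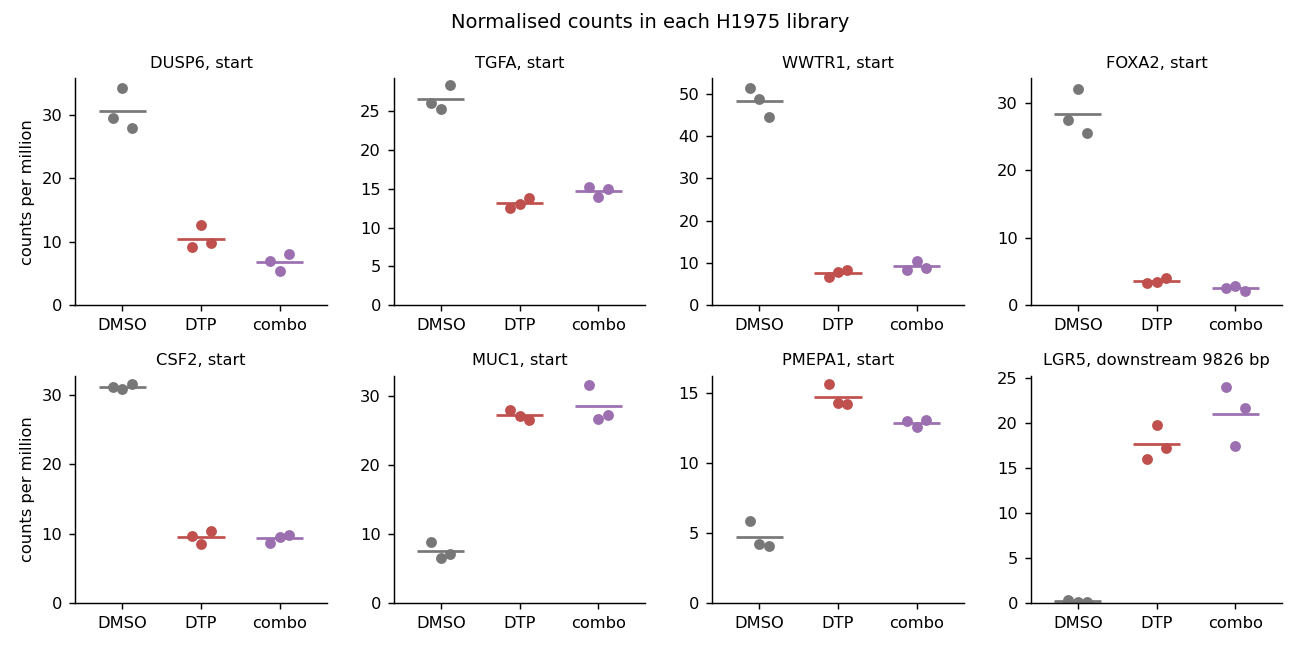
Normalised counts (CPM, vertical axis) in each DMSO, DTP and combo library at 8 regions, with a horizontal line at the mean of the 3 libraries. The DTP points of DUSP6, TGFA, WWTR1, FOXA2 and CSF2 lie below all DMSO points, and those of MUC1, PMEPA1 and LGR5 above them.

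Epithelial genes held more falls than rises, with a share of falls near that of intron regions. Of 212 regions nearest 24 genes, 60 fell (28.3%) and 20 rose (9.43%) at 2-fold. Of 23 promoters 11 fell, 2 of them at 2-fold, and 3 rose, 1 of them at 2-fold. All annotated regions likewise held fewer falls at 2-fold near starts than away from them, as above. The largest gene sum falls were in keratin KRT19 (-0.82), the ETS factor EHF (-0.78), CLDN3 (-0.71) and ELF3 (-0.64), and E-cadherin CDH1 fell by 0.48 on the log2 scale. Keratin KRT7 went the other way (gene sum 0.32), with 8 of its 16 regions higher and 3 lower at 2-fold. The ELF3 start rose at low levels, from 0 to 0.807 up to 1.54 to 2.50 CPM (2.05), although its gene sum fell. At the CDH1 start the levels were 35.3, 36.9 and 34.2 CPM in DMSO and 29, 31.4 and 32.5 CPM in DTP libraries, a difference of -0.19 that vanished (0.0061) with scaling by library size alone. KRT8, the keratin partner of KRT18, fell at 1 of its starts from 61.9, 62.0 and 60.5 to 28.8, 37.9 and 32.5 CPM (-0.89), beside the KRT18 start, which rose (0.64). The other regions that held a KRT8 start did not pass the test (-0.06 to 0.25), and a KRT8 region -649 bases from a start rose (1.72). OVOL2, a factor that keeps epithelial identity, fell from 29.4, 30.1 and 28.9 to 12, 14.9 and 13.3 CPM at 1 start (-1.13) and was at 0.00 at another. EPCAM did not pass the test at its start (-0.10).

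Mesenchymal genes moved both ways. Of their 129 regions 23 rose (17.8%) and 22 fell (17.1%) at 2-fold, with a median of 0.10. Cadherin CDH11 (gene sum 1.62) and ZEB2, a repressor of E-cadherin (1.66), rose, while TWIST1 (-1.76, from 1 region) and PRRX1 (-1.09) fell. CDH2, N-cadherin, fell at its start (-1.17), and vimentin VIM rose slightly (0.29, edgeR adjusted p 0.042).

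Lineage genes changed gene by gene. FOXA2, a pioneer factor of endoderm and lung, fell at its start from 27.5, 32.2 and 25.5 to 3.33, 3.40 and 4.03 CPM (log2 change -2.98, edgeR adjusted p 2.7e-56), and its gene sum from 66.4 to 69.7 down to 16.4 to 18.5 CPM. The surfactant protein gene SFTPB (-1.44) and the aspartic protease NAPSA, with 18.9, 14.1 and 12.7 against 5.37, 6.12 and 6.94 CPM (-1.28), fell as well. NKX2-1, the lung lineage factor, did not pass the test (0.12), and the water channel AQP5 (gene sum 1.65) and FOXP2 (1.35) rose. The 89 regions of the lung list held 10 rises (11.2%) and 16 falls (18%) at 2-fold, near the shares of all annotated regions.

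Among gut and liver genes, LGR5, a receptor of R-spondins known from intestinal stem cells, opened 9826 bases downstream of its start at chr12:71581090-71581591, from 0.135 to 0.309 CPM, 4 counts over all DMSO libraries, to 16.0 to 19.7 CPM. Another LGR5 region, at -9882 bases, rose from 1.08 to 1.86 up to 4.48 to 6.24 CPM (log2 change 1.94). HNF4A, the hepatocyte nuclear factor, rose from 1.81 to 4.45 up to 14.5 to 15.5 CPM in its only region, and apolipoprotein APOB rose (1.70). The trefoil peptide TFF1 (-1.61) and the intestinal cadherin CDH17 (promoter -1.9) fell. The list as a whole had 6 rises (14.6%) and 9 falls (22%) in 41 regions.

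Neuronal genes had the largest share of rises of the 23 lists. Of 67 regions nearest 17 of 26 genes, 23 rose (34.3%) and 6 fell (8.96%) at 2-fold, with a median of 0.64, and 9 gene sums rose by at least 1.5-fold against 1 that fell by as much. Among the 19239 annotated regions with the lowest DMSO levels, 35.2% rose and 2.50% fell at 2-fold. The axon guidance receptor ROBO1 rose from 1.73 to 2 up to 7.51 to 9.41 CPM (2.13), and CNTN4 (2.09) and CNTNAP2 (1.88), of the contactin system, rose likewise. At the start of ROBO1 the levels were 0.619, 0.673 and 0.539 CPM in DMSO and 2.82, 3.86 and 3.58 CPM in DTP libraries (log2 change 2.47). Most of these genes started from low levels, and the median of the list was 0.49 with regional medians removed. POU2F3, the tuft cell factor, was the gene sum that fell by at least 1.5-fold (-0.61).

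Cell cycle genes closed at many starts by small steps. Of 31 promoters of the E2F and cell cycle list 21 fell and 1 rose, but only 2 fell at 2-fold, and over all 110 regions 25 fell (22.7%) and 4 rose (3.64%) at 2-fold. Without regard to size 63 regions were lower and 16 higher, which became 45 and 26 with scaling by library size alone. The only region of MCM2, a helicase subunit of the replication fork, lay -3522 bases from its start and went from 0 to 0.674 up to 4.76 to 6.27 CPM. Thymidylate synthase TYMS, which makes thymidylate for DNA synthesis, fell from 9.28, 7.94 and 8.49 to 3.71, 3.52 and 4.48 CPM at its start (-1.12), and the atypical E2F repressor E2F8 from 23.2, 20.2 and 19.7 to 10.9, 12.7 and 12.4 CPM (-0.80). The ribonucleotide reductase subunit RRM2 had a lower gene sum (-0.88). The mitotic kinase PLK1 was the promoter that rose, from 17.5, 13.6 and 13.8 to 23.4, 29 and 23.6 CPM (0.78). Among CDK inhibitors, CDKN2A (gene sum 0.77) and CDKN2C (0.57) rose, and of 12 promoters in that list 3 rose and none fell, while its 73 regions held 2 rises and 11 falls at 2-fold.

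In the BCL2 family, the BH3-only death genes split. HRK rose at its start from 3.25, 2.56 and 3.91 to 7.68, 9.64 and 8.96 CPM (1.44), and BID rose (0.81), while BMF (-0.58) fell. BIK (gene sum -0.59) and the anti-apoptotic BCL2A1 (-0.65) fell, and the anti-apoptotic MCL1 rose (0.43). The list held 7 rises and 17 falls at 2-fold in 90 regions, with a median of -0.15 (0.04 with scaling by library size alone).

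Cytokine genes separated into opened and closed loci. CSF2, the growth factor GM-CSF and a known AP-1 and NF-kappaB target, fell at its start from 31.1, 30.8 and 31.6 to 9.60, 8.51 and 10.3 CPM (log2 change -1.72, edgeR adjusted p 1.8e-38), and a region 41517 bases downstream from 17.9 to 21.7 down to 1.41 to 1.79 CPM. The promoter window of CSF2 held no AP-1 match and no match to the other motifs searched. Gene sums fell for IL1B (-1.58), IL1A (-1.36) and CXCL8 (-1.11). Rises stood in the chemokines CCL2 (1.99) and CXCL1 (1.18), the prostaglandin synthase PTGS2 (1.33) and LIF (0.84), with 7 of 9 LIF regions higher at 2-fold. Over all 170 regions 24 rose and 37 fell at 2-fold, and 8 gene sums rose and 6 fell by 1.5-fold. Interferon genes had 19 rises and 17 falls at 2-fold in 110 regions and 10 promoters of 24 higher and 2 lower, with MX1 (gene sum 0.98) and OAS2 (0.97) up and SP100 (-0.84) down, and chromosome 6 from about 29 to 33 Mb was not analysed here.

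Detoxification genes held more falls than rises, with a share of falls near that of intron and distal intergenic regions. Of 189 regions nearest 30 of the 32 NRF2, glutathione and aldehyde dehydrogenase genes, 48 fell (25.4%) and 11 rose (5.82%) at 2-fold, with a median of -0.31, and 10 gene sums fell by at least 1.5-fold against 1 that rose by as much. The retinal dehydrogenase ALDH1A1 fell from 44.8 to 55.2 down to 8.57 to 10.1 CPM at a region -19731 bases from its start (log2 change -2.46, edgeR adjusted p 4.9e-66). Aldose reductase-like AKR1B10 fell at its start from 10.7, 11.8 and 11.7 to 3.20, 1.59 and 1.9 CPM (-2.38). The thioredoxin reductase TXNRD1 lost 10 of its 17 regions at 2-fold (gene sum -0.79), and HMOX1, heme oxygenase, fell by 0.93 on the log2 scale. ALDH1A3, a relative of ALDH1A1, rose from 2.16, 2.42 and 2.29 to 6.65, 6.01 and 4.93 CPM at 1 start (1.34), and its other start region rose too (1.93).

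The remaining lists held rises and falls side by side. In cholesterol and fatty acid synthesis 14 regions rose and 32 fell at 2-fold of 164, with 15 of 28 promoters lower, among them the desaturase FADS2 (-1.32). Matrix and integrin genes had 32 rises and 55 falls in 284 regions, with ITGA6, an integrin of the basement membrane, down from 19.8, 18.6 and 19.4 to 8.45, 7.71 and 6.38 CPM at its start (-1.36), and laminin LAMA1 (gene sum 1.73) and COL12A1 (1.19) up. WNT and Notch genes had 35 rises and 50 falls in 265 regions, with WNT5A (1.39) up, the WNT inhibitor DKK1 (-1.11) down and the NOTCH2 promoter up (2.01). SOX and KLF factors had 16 rises and 22 falls in 119 regions, with SOX7 (-1.98) down and SOX4 (0.90) and KLF8 (1.19) up. Genes of BET proteins and P-TEFb, the targets of AZD5153 and their partners, had 10 rises (12%) and 4 falls (4.82%) in 83 regions. The reader BRD3 (0.93), the demethylase JMJD6 (1.05) and MYC (0.84) were up. Of 19 promoters in that list 4 rose and 4 fell without regard to size. A start region of BRD3 did not pass the test (-0.14, edgeR adjusted p 0.24). The 10 Mb bin that holds MYC, on chromosome 8 from 120 to 130 Mb, had a median log2 change of 0.41.

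**Figure D5:**
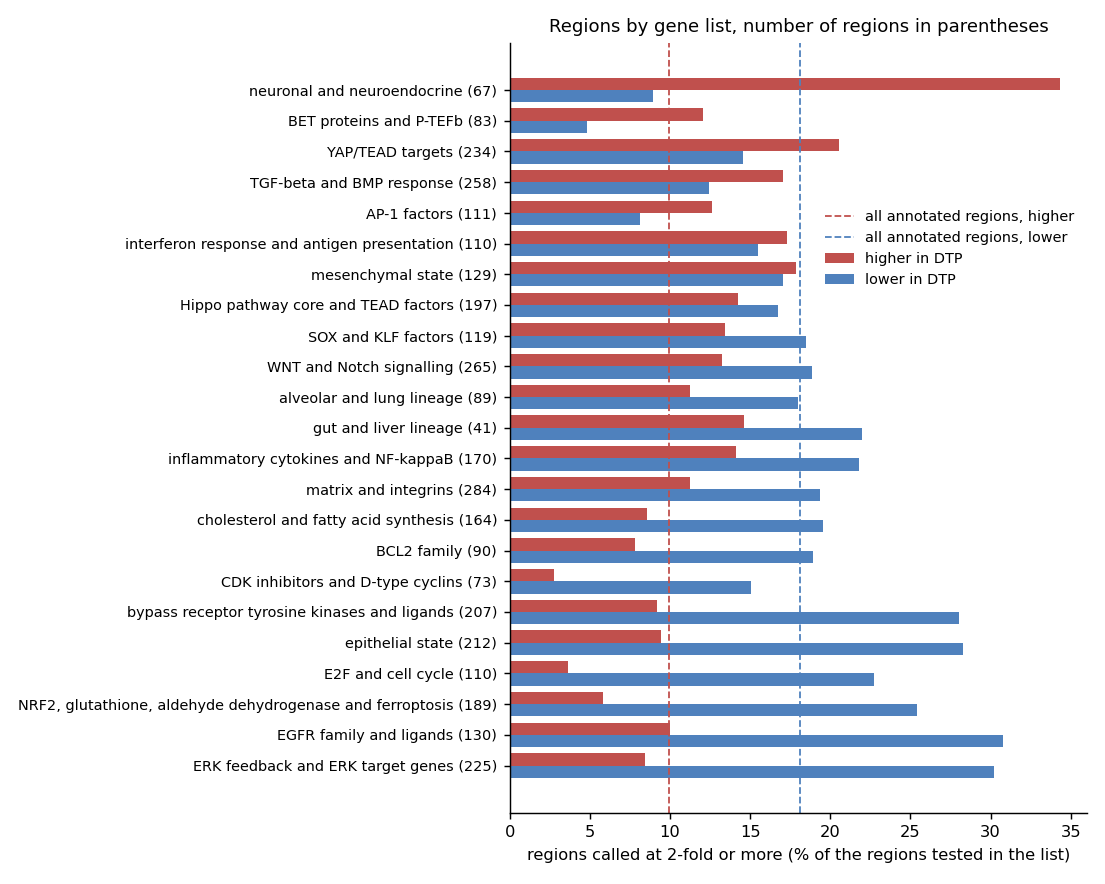
Percentage of the regions of each of 23 gene lists called higher (red) and lower (blue) in DTP at 2-fold. Dashed lines mark the 9.93% higher and 18.1% lower of all annotated regions. Neuronal genes stand highest in rises at 34.3%, and the EGFR family is at 30.8% and ERK feedback genes at 30.2% in falls.

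The steepest single regions switched between nearly closed and open. Among promoters, a region of ZNF431, a zinc finger gene, at chr19:21183283-21183784 went from 0.155 to 0.27 up to 10.2 to 12.6 CPM, and combo libraries were back at 0.262 to 0.45 CPM. CST5, a cystatin, rose from 0.135 to 0.539 up to 16.9 to 19.0 CPM at chr20:23880393-23880894 (log2 change 5.52), and WBP1L, a WW domain binding protein, from 0.269 to 0.404 up to 13.1 to 17.6 CPM. In the other direction PON3, a lactonase, fell from 18.5 to 22.9 down to 0.113 to 0.448 CPM, LINC02889 from 12.4 to 20.7 down to 0.112 to 0.227 CPM, and TTLL5, a tubulin glutamylase, from 8.9 to 10.5 down to 0 to 0.227 CPM. The rises had a called peak in none of the DMSO and all of the DTP libraries, and the falls the reverse.

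Away from starts by over 10 kb, a region nearest CDR1 on chromosome X (chrX:140815802-140816303) rose from 0 to 0.135 up to 9.21 to 11 CPM and one nearest PLCXD3, a phospholipase domain gene on chromosome 5, from 0 to 0.135 up to 7.37 to 8.51 CPM. A region nearest KCNMA1, the large-conductance potassium channel, opened from 0 to 4.25 to 4.88 CPM. Falls reached 22.1 to 27.4 down to 0 to 0.512 CPM nearest GAPVD1 (log2 change -6.41) and 13.0 to 16.0 down to 0 to 0.128 CPM nearest OLIG3, and the ephrin receptor EPHB1 fell from 10.1 to 11.6 down to 0.112 to 0.128 CPM.

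Some loci moved over many regions. GPR132, an acid-sensing receptor, had 48 of 50 regions higher at 2-fold (median log2 change 2.46), the long noncoding LINC00662 21 of 22 (4.15) and the short-chain dehydrogenase DHRS2 22 of 31 (1.61). PVT1, next to MYC, had the most rises in number, 78 of 370 regions, which became 34 with regional medians removed. Falls spread over KCNMA1 (18 of 26 regions, beside 3 rises), COBL, an actin nucleator (17 of 45), SHANK2, a postsynaptic scaffold (17 of 53), and BTBD11 (12 of 18). Regional medians also moved. Of 297 bins of 10 Mb with at least 50 regions, 29 had a median log2 change of at least 0.3 and none was at -0.3 or below. Of the 75 bins with the fewest regions (at most 324), 23 were among these, against 1 of the 148 bins with the most. Whether copy number differs between the groups was not tested.

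The change was read against PC9, another EGFR-mutant lung adenocarcinoma line with the same arms, over 127871 regions matched by a reciprocal overlap of at least 50%. The change in H1975 differed from that in PC9 at 26.3% of them (edgeR interaction, adjusted p under 0.05). These 33661 regions became 22333 to 24765 when the libraries of any 1 replicate number were left out. Of 16563 matched regions higher at 2-fold in H1975, 72.2% had the same sign in PC9 and 3053 were higher at 2-fold there too, while 7999 (48.3%) rose more in H1975 by the interaction test. Of 17197 lower ones, 74.2% had the same sign, 3980 were lower at 2-fold, and 8811 (51.2%) fell more in H1975. Median log2 changes of these regions were 1.57 in H1975 and 0.41 in PC9 for rises and -1.64 and -0.53 for falls, with the H1975 values chosen by size. The WWTR1 start region at chr3:149576109-149576610 closed in both lines, with log2 changes of -2.64 in H1975 and -2.27 in PC9 (difference -0.39, edgeR adjusted p 0.43). The PMEPA1 start opened in H1975 but not in PC9, where its log2 change was -0.72 (difference 2.36, edgeR adjusted p 8.6e-19). The HRK start and the IGF1R start that fell in H1975 changed less in PC9, with differences of 1.47 (edgeR adjusted p 4.8e-09) and -1.74 (edgeR adjusted p 3.8e-14). The KRT8 start region that fell was at -0.89 in H1975 and 0.72 in PC9 (edgeR adjusted p of the difference 3.2e-09) and NAPSA at -1.28 and 1.57 (8.6e-05).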

How the data were processed

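ATAC-seq libraries of H1975 cells were read from tables that the authors deposited, with raw counts per region and a column for each library. Of the deposited peak lists, 1 for each library with q values as −log10, only the presence of a peak was used. The submitters' processing notes name BWA 0.7.17, SAMtools 1.9, deepTools 3.4, MACS2 2.2.6, featureCounts 2.0.0, ChIPseeker 1.29.1 and build hg38. Titles and design give ATAC-seq while the extraction text describes H3K27ac immunoprecipitation, and the values were read as ATAC-seq. The members and lists were chosen with earlier results of these data known.

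The counts of all 12 H1975 libraries (4 groups of 3) entered 1 fit in edgeR 4.0.16 (R 4.3.3). It used TMM factors, the filterByExpr filter, group means and edgeR's default prior count. DTP was compared with DMSO by the quasi-likelihood F test, Benjamini-Hochberg adjusted over all regions or genes tested. A prior count of 2 entered only the log levels behind the regional medians and the correlations between libraries. Gene sums added the counts of all annotated regions with the same symbol. Shares were compared by exact two-sided permutation in scipy 1.17.1. The pipelines were tested on simulated data. Total counts, 7853163 to 9547244 per library, limit levels under about 1 CPM, and ranges without a fold are given where a group held 3 counts or fewer, except in the interaction values of the closing section.

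Regions were named where called, with no overlap of libraries and a mean above the median: the 6 largest rises and falls within 1 kb of a start and the same beyond 10 kb, the 6 genes with the most changed regions each way, and in each list the extreme promoters and the genes with most changed regions. Cell type markers and 10 genes of the study's question were added. Other genes named were chosen after their values were seen. Same-numbered libraries did not deviate together (correlations -0.046, 0.015 and -0.001). The alternatives were other scalings, filters and tools, the replicate block, leaving out libraries, summed libraries with the dispersion of HCC2935, removal of regional medians, and other overlaps. Counting DMSO libraries 1 and 2 as 1 sample was added after seeing the data. The columns of AZD5153 alone served only the fit. Some items are not reported here.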

Additional observations from a re-analysis of the deposited data

Results flagged for a closer look

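The H1975 change differed from the PC9 change at several of the named regions, by the edgeR interaction test. Differences are log2 change in H1975 minus log2 change in PC9. The rises nearest MIR3936 (5.58, adjusted p 2.5e-14), CST5 (5.28, adjusted p 4.9e-11), KCNMA1 (7.41, adjusted p 6.9e-18) and MYO16-AS1 (5.31, adjusted p 0.0012) were larger in H1975. At MIR3936 the PC9 libraries were already open, with 9.48 to 12.1 CPM in DMSO and 11.6 to 14.7 CPM in DTP, and the same held for KCNMA1 with 15.5 to 20.1 and 19.6 to 25 CPM.

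Falls were deeper in H1975 nearest LINC02889 (-5.70, adjusted p 3.4e-11), MEF2C-AS1 (-5.73, adjusted p 1.5e-11), C8orf74 (-3.55, adjusted p 2.6e-05), PCAT29 (-2.86, adjusted p 8.9e-05), DIS3L2 (-6.36, adjusted p 2.3e-27) and GAPVD1 (-2.67, adjusted p 0.024). Among promoters of the genes in question, DUSP6 (-0.88, adjusted p 5.3e-07) and AXL (-0.83, adjusted p 0.028) were lower and CCN2 (0.83, adjusted p 0.0020) and VIM (1.35, adjusted p 5.8e-07) higher relative to PC9. The values for KCNMA1, MYO16-AS1, MIR3936, DIS3L2 and MEF2C-AS1 rest on a group of H1975 libraries with at most 3 counts in all. These values depend on edgeR's default prior count and give no size of the difference. The regions were named for the size of their H1975 change, which favours a larger change in H1975 than in PC9. No group holds enough libraries for a check of single outlying libraries.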

How the results depend on the processing

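Named regions kept their direction and their call under each alternative that tested them (24 of 24, of which the filter at a mean of 50 counts tested 2), as did 65 of 98 promoters and 62 of 106 gene sums. Of 63 gene sum and 70 promoter calls lost over the alternatives, 40 and 18 were lost with libraries summed and the dispersion of HCC2935. Reversed values were the CDH1 promoter with scaling by library size alone (0.0061, edgeR adjusted p 0.951) and the SPRY2 gene sum with regional medians removed (-0.291). A filter at a mean of 50 counts tested fewer regions and left 25872 called, 6620 at 2-fold and 1154 promoters at 2-fold. With libraries summed and the dispersion of HCC2935, 5287 genes were called in place of 13371, and 76895 regions. With regions within 1 kb of the start only, 7534 genes were called and 2422 at 1.5-fold. Scaling by library size alone gave 38208 regions higher and 26443 lower at 2-fold, 3019 and 1163 promoters, 3351 and 2037 gene sums at 1.5-fold and 22488 and 13245 interactions, and moved the median of genes to 0.13. With DMSO libraries 1 and 2 counted as 1 sample, 3448 promoters were called at 2-fold and 13317 genes, and the promoter share differed by 5.39 points (exact permutation p 0.2, the smallest that 2 against 3 allow).

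Leaving out 1 library at a time gave 91954 to 98821 regions, 63795 to 67108 at 2-fold, 3513 to 3705 promoters, 12530 to 12840 genes and 5097 to 5318 at 1.5-fold. Interactions with PC9 fell to between 22333 and 24765 without a replicate number, lowest without replicate 2. The share differences ranged from 5.14 to 5.67 points for promoters within 1 kb, -0.500 to -0.480 at 1 to 3 kb, -3.04 to -2.72 for introns, -2.0 to -1.80 for distal, -0.211 to -0.182 for exons, 0.060 to 0.068 for UTRs, -0.0049 to -0.0035 for downstream regions and -0.049 to 0.0069 for chromosome X, which thus changed sign. Since the numbers pair no libraries, a fit with the replicate block is given only here, with 97985 regions, 61799 at 2-fold, 3490 promoters, 13319 genes, 5185 at 1.5-fold and 32813 interactions. Depth limits what can be said of regions near 0, and a spread close to counting noise limits what the p-values cover.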
